A study of Mus musculus with 20 samples.

Results

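Hmgcs1, Idi1, Fdft1, Sqle, Sc5d and Dhcr7 encode enzymes of cholesterol synthesis, Srebf2 encodes the transcription factor SREBP2 that switches them on, and Insig1 encodes a sterol sensor partner that holds SREBP2 back. These 8 genes were picked by name from the 55401 genes of the deposited count table, through their gene identifiers. All 8 were found and all 8 passed the filter on low counts, so none was left out of the tests.

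Cholesterol is built from acetyl-CoA by way of mevalonate, isoprenoid diphosphates, squalene and lanosterol. SREBP2 is made as a membrane protein of the endoplasmic reticulum, bound to the escort protein SCAP. When sterols are plentiful, the INSIG proteins keep this complex in place. When they are scarce it moves to the Golgi, where proteases release the active factor, which raises the genes of synthesis and Insig1 itself. Adipocytes hold a large share of their cholesterol unesterified, around and in the membrane of the lipid droplet, and they take up much of it from lipoproteins.

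PolyA RNA of mouse eWAT, the white fat of the epididymal pad, was read in 20 libraries. Of these, 10 came from mice on a control diet and 10 from mice under random food restriction, a regime that joins intermittent fasting to a calorie cut of 5%, and the comparison asks which transcripts differ between the diets. The labels mark a contamination by spermatocytes, the meiotic germ cells, as Yes for 7 control and 3 restricted libraries and as No for the other 3 and 7. They give no strain, genotype, age or sex, and they do not say that each library is a separate animal, so a p-value here sets a difference against the scatter of libraries, part of which may be technical.

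Libraries held 14306528 to 44061508 counts, and the RNA integrity number, known for 17 of them, lay between 6.5 and 7.9. The summed level of 6 adipocyte markers was 23922 to 28125 CPM (counts scaled to library size) in control and 25431 to 30542 CPM in restricted libraries, all 6 being detected in each. The tissue label, eWAT, was followed, although the extraction text names QUAD. All 6 skeletal muscle markers together reached 3095 CPM in the library Restricted 1, with 32.4 to 97.2 CPM in the other restricted libraries. They reached 887 to 1921 CPM in Control 1 to 5 and at most 44.9 CPM in Control 6 to 10, and 2 of the 6 were at 0 in some libraries. Macrophage markers, 5 of 5 detected in every library, summed to 545 to 796 CPM in control and 359.8 to 559 CPM in restricted libraries, with the 359.8 in Restricted 1. Control 2 stood apart in the sum of 5 sebaceous gland markers, at 122 CPM against at most 15.4 CPM elsewhere. Awat2 and Krt79 made up most of that sum, and 1 of the 5, Awat1, was at 0 in every library. The 7 spermatogenic markers summed to 2.19 to 92.1 CPM in libraries marked Yes and to 2.66 to 34.5 CPM in those marked No, and 6 epididymis markers to 0 to 345 CPM and 0 to 70.0 CPM. Sycp3 made up most of the spermatogenic sum in every restricted library but Restricted 2. Sycp3 was at least 2.83 CPM in restricted and at most 2.98 CPM in control libraries. Every other spermatogenic marker was at most 0.164 CPM in restricted libraries other than Restricted 2, so the sum there rests on Sycp3. In control libraries Prm2 reached 12.31 CPM (Control 6), while 5 of the 7 markers were at 0 in Control 3. The 4 liver markers summed to 15.2 to 31.2 CPM in control and 29.9 to 43.0 CPM in restricted libraries, 8 of the latter above every control library. Alb made up the greater part of that sum in most libraries, while Apoa1 was at most 0.508 CPM and Ttr at most 0.765 CPM. The sum of 3 brown adipocyte markers was highest in Restricted 1, at 9.78 CPM against at most 6.08 CPM elsewhere. Cox7a1 made up most of that sum in every library, and all of it in Control 3, the next highest. Elovl3 was also highest in Restricted 1, at 1.38 CPM against at most 0.578 CPM elsewhere. Ucp1 was at most 0.133 CPM in any library and was not detected in Restricted 1, so not all 3 markers were high there. The 5 Leydig cell markers summed to 6.26 to 11.2 CPM in control and 5.57 to 13.1 CPM in restricted libraries. The part of these other cells in the results was not tested, and in bulk tissue fewer cells of a type and less RNA per cell cannot be told apart. Results are therefore given with and without Restricted 1.

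Promoter windows from 250 bases before to 50 after a start site were available from RefSeq (GRCm38.p6) for 6 of the 8 genes, Sqle and Fdft1 being the others, in 8 windows. They were searched on both strands for the letters of SREBP-type elements. The core of a sterol regulatory element with a free base, TCACNCCAC, held by 1.24% of 32851 mouse windows of the same length, was in that of Hmgcs1, 137 bases before the start. The E-box CACGTG, held by 7.15% of all windows, was in those of Insig1 and Sc5d, 101 and 98 bases before the start, and in 1 of 3 windows of Dhcr7. CCAAT, read by NF-Y, and the GC box GGGCGG were in windows of all 6 genes, and are held by 37.4% and 35.7% of all windows. The 250 bases before the start are shown for 3 genes that hold an SREBP-type match. With all 20 libraries Insig1 and Sc5d were called by diet and Hmgcs1 was not, and the Insig1 call ended without Restricted 1. Dhcr7, also called with all 20 libraries, is not shown. The match differs too, the E-box in Insig1 and Sc5d and the sterol element core in Hmgcs1, so calls and motifs cannot be compared here. Capitals mark that match, a likeness of letters and not a measured site. They lie at chr5:28071162-28071411 (plus strand), chr9:42264301-42264550 (minus strand) and chr13:119690101-119690350 (plus strand).
Insig1: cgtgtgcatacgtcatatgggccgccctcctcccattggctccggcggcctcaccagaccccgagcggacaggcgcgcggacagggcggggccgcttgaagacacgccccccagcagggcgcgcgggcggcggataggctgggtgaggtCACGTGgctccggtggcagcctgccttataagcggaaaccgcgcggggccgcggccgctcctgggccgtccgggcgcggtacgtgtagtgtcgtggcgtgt
Sc5d: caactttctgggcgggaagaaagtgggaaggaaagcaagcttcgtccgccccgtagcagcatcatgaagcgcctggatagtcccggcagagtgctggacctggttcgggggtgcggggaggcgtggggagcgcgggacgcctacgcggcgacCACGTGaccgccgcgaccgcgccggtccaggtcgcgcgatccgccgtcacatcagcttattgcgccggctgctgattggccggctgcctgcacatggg
Hmgcs1: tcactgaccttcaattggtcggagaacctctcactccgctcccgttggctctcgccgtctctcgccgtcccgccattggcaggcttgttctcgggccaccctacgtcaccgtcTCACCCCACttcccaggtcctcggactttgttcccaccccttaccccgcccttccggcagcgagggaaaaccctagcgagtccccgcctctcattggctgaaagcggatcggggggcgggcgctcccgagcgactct

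Fdft1 and Sc5d were higher in restricted fat and stayed so without Restricted 1. The rises of Insig1 and Dhcr7 no longer passed an adjusted p of 0.05 without that library. Their log2 sizes went from 0.95 to 0.42 and from 0.55 to 0.20, and Dhcr7 also failed to pass without some other single libraries. Srebf2 was slightly lower, and no change of Hmgcs1, Sqle or Idi1 was detected. By edgeR's quasi-likelihood test, fitted with contamination label and diet, 5 of the 8 genes were called (adjusted p under 0.05), 4 higher and 1 lower, where 13.6% of the 15986 genes tested were called, 6.31% higher and 7.29% lower. Without Restricted 1, 2 of the 8 were called, both higher, where 11.1% of 16135 genes were called, 4.82% higher. The median log2 fold change of the 8 was 0.30 with all libraries and 0.06 without Restricted 1, beside 0.01 over all tested genes in both fits. CPM values of single genes are scaled by TMM factors, and a fold is restricted over control.

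**Figure D1:**
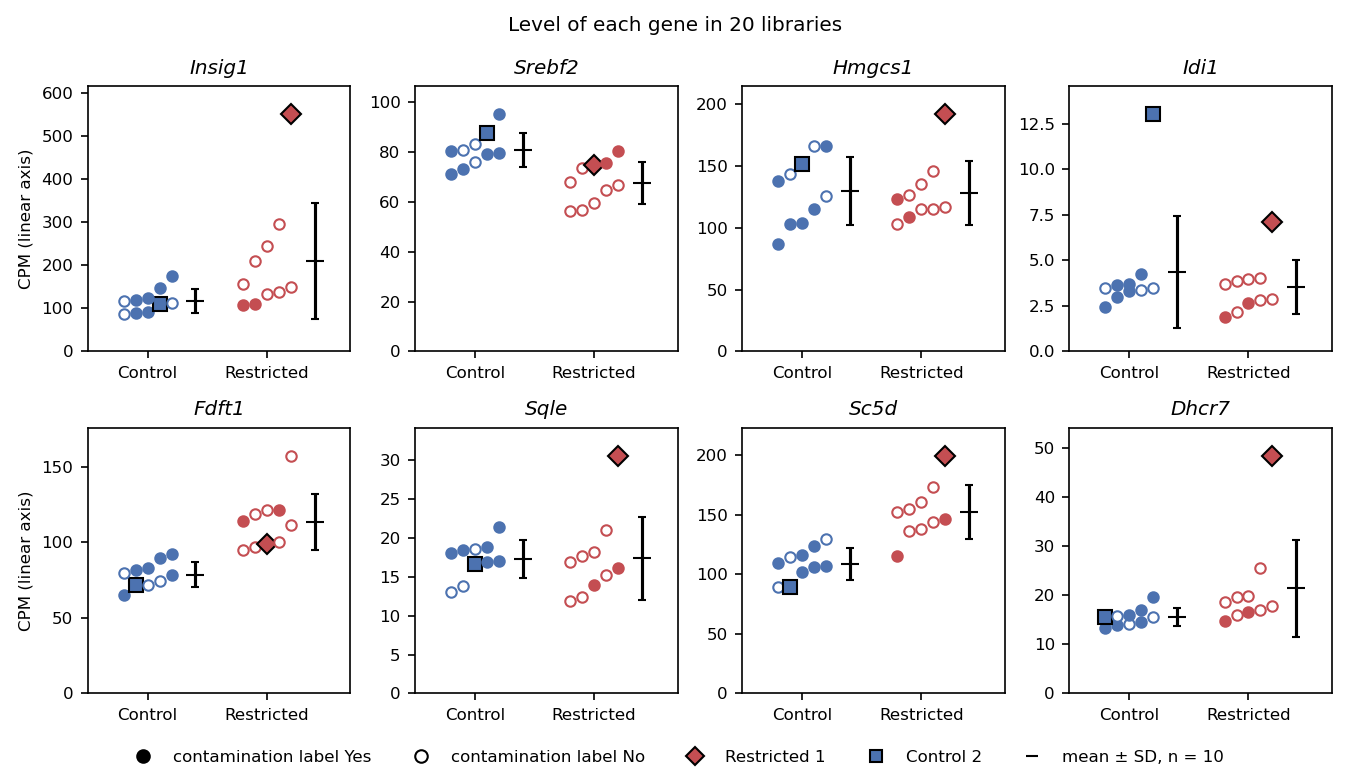
Level of each of the 8 genes in CPM (linear axes from 0) in 10 control (blue) and 10 restricted (red) libraries, with filled points for the contamination label Yes, open points for No, a diamond for Restricted 1, a square for Control 2 and bars for the mean ± SD. All restricted points of Fdft1 lie above all control points, Restricted 1 is the highest point for Insig1, Hmgcs1, Sqle, Sc5d and Dhcr7, and Control 2 is the highest for Idi1.

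Among the regulators, Insig1 (chr5:28071363-28077051, plus strand) had 87.8 to 175 CPM in control libraries, with a median of 116, and 109 to 551 CPM in restricted libraries, with a median of 153. Its 551 CPM in Restricted 1 was followed by 296 in Restricted 10, 245 in Restricted 5 and 209.9 in Restricted 9, and these 4 were the restricted libraries above every control library. The other 6 fell inside the control range, so the groups overlapped. The fold change was 0.95 ± 0.259 on the log2 scale (SE), with an adjusted p of 0.0179. Without Restricted 1 it was 0.42, with a 95% interval of −0.03 to 0.88 and an adjusted p of 0.230, and no other single library ended the call. Restricted 1 was also the library with the highest muscle sum. In the 3 control libraries marked No, Insig1 had 87.8 to 118 CPM. In the 7 restricted libraries marked No it had 132 to 296 CPM. That set alone does not hold Restricted 1, and Insig1 was not called in it.

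Srebf2 (chr15:82147181-82204675, plus strand) had 71.3 to 95.1 CPM in control libraries (median 80.0) and 56.3 to 80.4 CPM in restricted libraries (median 67.5). In restricted libraries 6 of 10 values were below the lowest control value and 1 was above the control median. The difference was −0.20 ± 0.0665 (log2, SE), with an adjusted p of 0.0471. That call was marginal: leaving out any of 15 of the 20 libraries ended it, with adjusted p between 0.0530 and 0.132, and it held only without Control 4, Control 9, Restricted 2, Restricted 7 or Restricted 9. The size moved little, from −0.23 to −0.17, and was −0.21 without Restricted 1 (adjusted p = 0.0562). In restricted libraries marked No, Srebf2 was at 63.7 ± 6.52 CPM (SD, n = 7), and in those marked Yes at 76.9 ± 3.02 CPM (SD, n = 3). Control libraries had 80.1 ± 3.72 CPM under No (SD, n = 3) and 81.0 ± 8.16 CPM under Yes (SD, n = 7).

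The Srebf2 locus also carries the microRNA miR-33, known for lowering the sterol exporter ABCA1. Its mature strand lies at chr15:82198127-82198147 (plus strand), within an intron of each of the 3 Srebf2 transcripts of GENCODE vM21 that span it. The RefSeq sequence is shown with the seed, bases 2 to 8, in capitals because the host gene is a transcript measured here and the microRNA is not: Mir33 had 0 counts in all 20 libraries of this polyA protocol.
mmu-miR-33-5p: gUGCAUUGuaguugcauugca

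At the start of the pathway, Hmgcs1 (chr13:119690379-119708082, plus strand), the cytosolic HMG-CoA synthase, had 86.6 to 166 CPM in control libraries (median 131) and 103 to 191 CPM in restricted libraries (median 120). Only Restricted 1, at 191 CPM, lay above the control range. The difference was −0.02 (log2), with a 95% interval of −0.29 to 0.24 and an adjusted p of 0.931, and −0.18 without Restricted 1, with an interval of −0.42 to 0.06.

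Idi1 (chr13:8885501-8891358, plus strand), the isomerase that makes dimethylallyl diphosphate, was the least abundant of the 8. It had 2.45 to 4.28 CPM in 9 control libraries and 13.0 CPM in Control 2. In restricted libraries it had 1.89 to 4.05 CPM, and 7.11 CPM in Restricted 1. The difference was −0.18 (log2), with an interval of −0.81 to 0.45 and an adjusted p of 0.750, −0.46 without Restricted 1 and 0.06 without Control 2. Idi2, its paralog nearby on the chromosome, had 33.5 CPM in Control 2 and at most 0.316 CPM in any other library. The high Idi1 value of Control 2 thus came with its paralog and with the high sebaceous sum named above. How reads of the paralogs were shared is not given in the sources used here.

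At the entry to the sterol branch, Fdft1 (chr14:63145150-63179578, minus strand), squalene synthase, had 65.0 to 92.2 CPM in control libraries (median 79.0) and 95.1 to 157 CPM in restricted libraries (median 113). All 10 restricted libraries were above all 10 control libraries, as was so for 0.363% of all tested genes. The fold change was 0.54 ± 0.0908 (log2, SE), a 1.45-fold rise, with an adjusted p of 0.000548. Without Restricted 1, which at 99.1 CPM was among the lower restricted libraries, it was 0.58 (adjusted p = 0.000692). It was the only one of the 8 called in all 35 alternative analyses, libraries marked No alone (0.61, adjusted p = 0.0429) and Yes alone (0.48, adjusted p = 0.0468) among them. In those sets Fdft1 was the only one of the 8 called, where 2.41% and 1.4% of all tested genes were called. By edgeR's unadjusted p under 0.05, 6 of the 8 passed in libraries marked No, where 3100 of 16584 genes did. In those marked Yes 4 of the 8 passed, where 3105 of 17069 genes did.

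The last 774 bases of Fdft1, an overlap equal to 18.8% of its annotated length, are shared with Ctsb, the lysosomal protease cathepsin B, on the opposite strand. The strand setting of the counting is not given, so reads there cannot be told apart. Ctsb went from 2068 ± 188 CPM under control diet to 2555 ± 229 CPM under restriction (SD, n = 10 each), a rise of 0.26 ± 0.0676 (log2, SE, adjusted p = 0.0141). Fdft1 amounted to 3.82% ± 0.420 of the Ctsb level under control diet and 4.47% ± 0.737 under restriction (SD, n = 10 each). Within diet and label, Fdft1 and Ctsb had r = 0.34 (permutation p = 0.1455) and rho = 0.30 (permutation p = 0.1949) over 20 libraries, and r = 0.17 without the 2 libraries farthest from the median.

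Sqle (chr15:59315077-59331192, plus strand), squalene epoxidase, takes the product of Fdft1 to the next step. It had 13.0 to 21.4 CPM in control libraries (median 17.6) and 11.9 to 30.5 CPM in restricted libraries (median 16.5). The 30.5 CPM of Restricted 1 was above every control value, and 2 restricted libraries were below every control value. The difference was 0.12 (log2), with an interval of −0.16 to 0.40 and an adjusted p of 0.613, and −0.07 without Restricted 1, with an interval of −0.32 to 0.19.

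Late in the pathway, Sc5d (chr9:42251595-42264256, minus strand), the sterol desaturase that makes the substrate of Dhcr7, had 89.0 to 130.0 CPM in control libraries (median 108). Restricted libraries had 116 to 199 CPM (median 149.6), and 9 of 10 were above every control value, the exception being Restricted 2. The fold change was 0.48 ± 0.0914 (log2, SE), a 1.39-fold rise, with an adjusted p of 0.00162. Without Restricted 1 it was 0.38 (adjusted p = 0.00665), and leaving out any other single library kept the call. In libraries marked No alone it was 0.45 (adjusted p = 0.0527) and in those marked Yes alone 0.52 (adjusted p = 0.0908).

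Dhcr7 (chr7:143823145-143848409, plus strand), the reductase that turns the last intermediate into cholesterol, had 13.4 to 19.7 CPM in control libraries (median 15.5) and 14.8 to 48.3 CPM in restricted libraries (median 18.3). Restricted 1 had 48.3 CPM and Restricted 10 had 25.7 CPM, and 9 of 10 restricted libraries were above the control median, while 3 were above every control value. The fold change was 0.55 ± 0.171 (log2, SE, adjusted p = 0.0367). Without Restricted 1 it was 0.20, with an interval of −0.02 to 0.41 and an adjusted p of 0.246. The adjusted p lay between 0.0503 and 0.0571 without Control 1, 2, 3, 4, 6 or 10 or Restricted 10, with the size at 0.52 to 0.59. In the 3 control libraries marked No, Dhcr7 had 14.1 to 15.8 CPM. In the 7 restricted libraries marked No it had 15.9 to 25.7 CPM, and it was not called in that set alone.

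**Figure D2:**
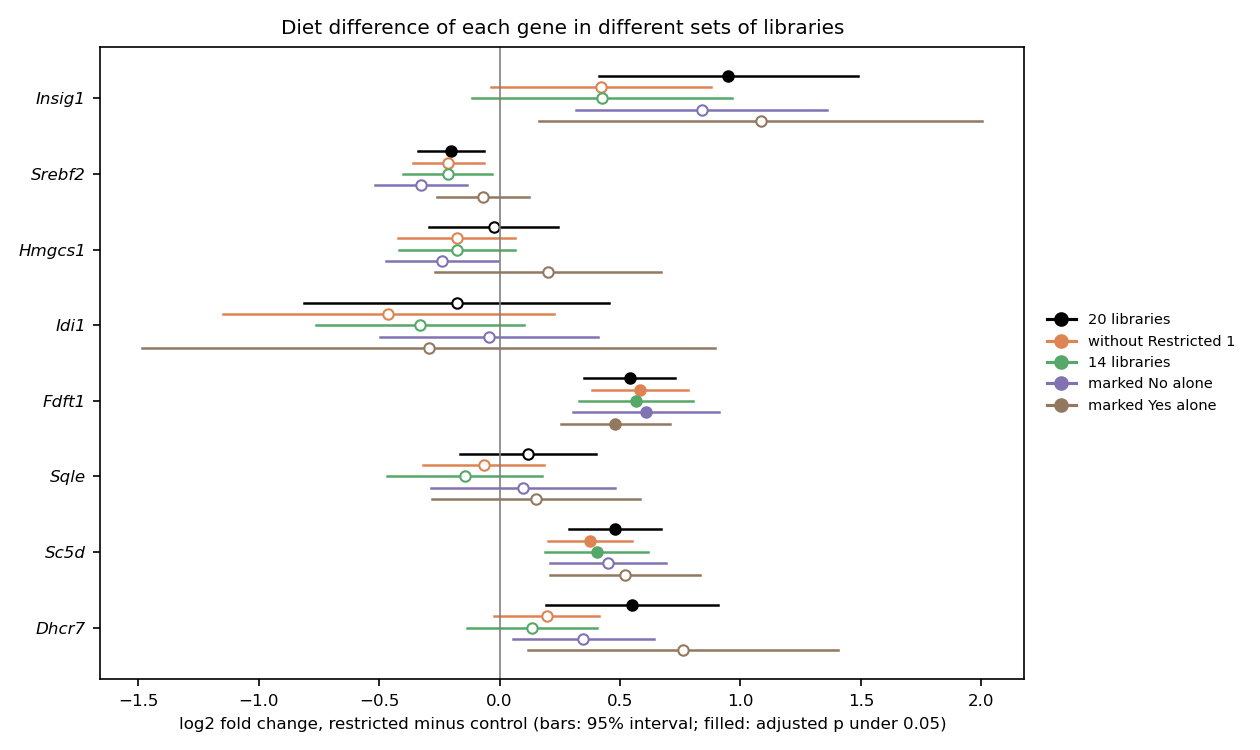
Log2 fold change (x axis, restricted minus control) of each of the 8 genes with its 95% interval, in all 20 libraries, after Restricted 1 is left out, in 14 libraries (without Control 1 to 5 and Restricted 1), and in libraries marked No or Yes alone; filled points have an adjusted p under 0.05. Fdft1 is filled in all 5 sets, Sc5d in 3, and Insig1, Dhcr7 and Srebf2 only with all 20 libraries.

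In the 14 libraries that remain without Control 1 to 5 and Restricted 1, 2 of the 8 genes were called, Fdft1 (0.57, adjusted p = 0.00916) and Sc5d (0.40, adjusted p = 0.0299), where 5.59% of 16591 genes were called and 2.39% were called higher. Insig1 was at 0.42 there (adjusted p = 0.360), Dhcr7 at 0.13 (adjusted p = 0.602) and Srebf2 at −0.22 (adjusted p = 0.161). For Fdft1 the fold change in all 20 libraries was 0.54 (log2). Muscle markers summed to at most 97.2 CPM in the 14 libraries, but this set also loses every one of Control 1 to 5. The part of muscle transcripts in any difference was not tested. The same pair was called after both Control 2 and Restricted 1 were left out, where 9.79% of all tested genes were called. With the RNA integrity number as a term, in 17 libraries, 3 of the 8 were called, Fdft1, Sc5d and Dhcr7, where 2.42% of all were. Without the label term 4 of the 8 were called, where 16.4% of all were.

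Compared per length, as CPM per kilobase of annotated length in control libraries (SD, n = 10), Insig1 had the highest level of the 8, at 38.0 ± 8.81. Hmgcs1 followed at 28.2 ± 6.0, Sc5d at 22.3 ± 2.72 and Fdft1 at 19.1 ± 2.04. Each of these 4 differed from its neighbour by less than the sum of their SDs. Srebf2, at 11.2 ± 0.961, was below them by more than that. Sqle at 3.12 ± 0.441 and Dhcr7 at 2.68 ± 0.315 were again lower and did not part from each other, and Idi1 was lowest at 1.25 ± 0.875. These lengths are those of the deposited annotation and not of the transcripts used in fat.

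Of 51 other genes of the pathway, listed by role, 49 could be tested, Soat2 and Ch25h being too low, and 5 were called, all higher. Over all tested genes 13.6% were called, 6.31% higher and 7.29% lower. Of 12 other synthesis enzymes none was called by edgeR, DESeq2 or limma-voom, and 2, Acat2 and Lss, had an unadjusted p under 0.05 in edgeR. Their median log2 fold change was 0.34 with 11 of 12 positive, and −0.03 with 6 of 12 positive without Restricted 1. Among libraries marked No alone, which do not hold Restricted 1, the median was 0.26 with 10 of 12 positive. In the 14 libraries without Control 1 to 5 and Restricted 1 it was −0.12 with 1 of 12 positive.

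Of 4 other SREBP2 targets, of sterol transport and related functions, none was called by edgeR or limma-voom, and 2, Mmab and Tmem97, had an unadjusted p under 0.05 in edgeR. Mmab, an enzyme of vitamin B12 metabolism, had 33.2 to 45.0 CPM in control libraries (median 40.9) and 39.4 to 74.2 CPM in restricted libraries (median 46.0), 5 of them above every control value. Its difference was 0.31 ± 0.105 (log2, SE, adjusted p = 0.0561), and 0.15 without Restricted 1 (adjusted p = 0.255). DESeq2 called Mmab alone of the 4 (0.32, adjusted p = 0.0355), where it called 1336 of all 15986 genes higher. Tmem97, a membrane protein that binds sterols, was at 0.23 (adjusted p = 0.139).

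Among 12 genes of SREBP processing and turnover, 1 was called, and it was higher, where 6.31% of all tested genes were called higher. Insig2, the second INSIG, had 50.9 to 67.4 CPM in control libraries (median 61.9) and 64.6 to 85.2 CPM in restricted libraries (median 76.8), 9 of them above every control value. It rose by 0.29 ± 0.0601 (log2, SE, adjusted p = 0.00323) and by the same 0.29 without Restricted 1 (adjusted p = 0.00815). Restricted 1, at 71.4 CPM, did not stand out for Insig2 as it did for Insig1. Scap, the escort protein, was at −0.12 (interval −0.26 to 0.03, adjusted p = 0.298), and Srebf1, the gene of the related factor SREBP1, at 0.14 (interval −0.12 to 0.41, adjusted p = 0.491). Erlin1, a membrane protein of the endoplasmic reticulum, was at 0.17 in edgeR (adjusted p = 0.0518) and was called without Restricted 1 (0.21, adjusted p = 0.0140). With all 20 libraries it was called by DESeq2 (0.18, adjusted p = 0.0178) and limma-voom (0.22, adjusted p = 0.00958).

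Of 8 genes of the isoprenoid branches, 3 were called, all higher, where 6.31% of all tested genes were called higher. Nus1 and Dhdds encode the partner subunits of the prenyltransferase for dolichol. Nus1 rose by 0.25 ± 0.0546 (adjusted p = 0.00412) and kept 0.26 without Restricted 1 (adjusted p = 0.00824), while Dhdds rose by 0.17 ± 0.0520 (adjusted p = 0.0333) and was at 0.11 without Restricted 1 (adjusted p = 0.114). Fnta, the shared subunit of protein prenyltransferases, rose by 0.14 ± 0.0447 (log2, SE, adjusted p = 0.0355). Its adjusted p was 0.0507 to 0.10 without Control 1, 2, 3 or 7 or Restricted 1 or 3.

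Of 13 tested genes of sterol efflux, esterification and storage, 1 was called by edgeR, and it was higher, where 6.31% of all were called higher. Npc2, a lysosomal protein that hands on cholesterol, was at 668 ± 65.9 CPM under control diet and 931 ± 167 CPM under restriction (SD, n = 10 each). Its rise was 0.45 ± 0.0990 (log2, SE, adjusted p = 0.00438), and 0.38 without Restricted 1 (adjusted p = 0.0194). Abcg1, a sterol exporter, was at 0.25 in edgeR (adjusted p = 0.122) and was called without Restricted 1 (0.35, adjusted p = 0.0149) and, with all 20 libraries, by limma-voom (0.35, adjusted p = 0.0162). Of the same 13, 1 gene was called lower by DESeq2 and 1 by limma-voom, where 1280 and 1131 of all 15986 genes were called lower. Nceh1, a hydrolase of cholesterol esters, was at −0.30 in DESeq2 (adjusted p = 0.0450) and at −0.31 in edgeR (adjusted p = 0.0590). Abca1, the exporter named above, was at −0.17 in limma-voom (adjusted p = 0.0479) and at −0.15 in edgeR (adjusted p = 0.106).

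**Figure D3:**
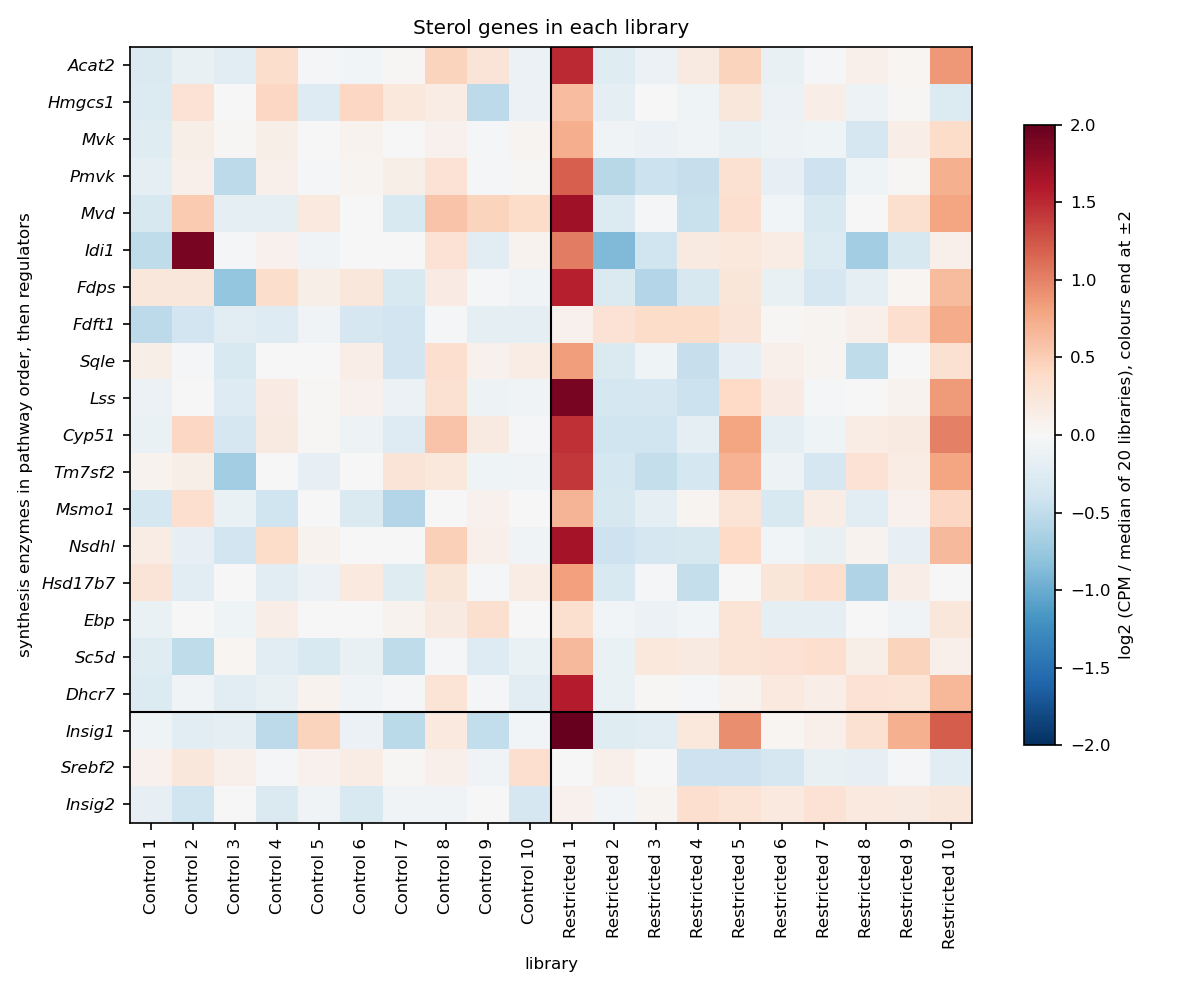
Log2 ratio of CPM to the median of 20 libraries (colour, ends at ±2) for 18 synthesis enzymes in pathway order and, under the line, Insig1, Srebf2 and Insig2, with control libraries left and restricted libraries right of the line. Restricted 1 is dark for most enzymes but not for Fdft1, Restricted 10 is paler, and Control 2 stands out for Idi1.

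Restricted 1 had the highest level of 16 of 18 synthesis enzymes (the 6 enzymes above and the 12 others), and of 12.9% of all tested genes. Its ratio to the median of the other 9 restricted libraries ran from 0.867 to 3.74 with a median of 2.51, and was at least 2 for 10 enzymes. The highest ratio was that of Lss, lanosterol synthase, at 163 CPM. Nsdhl and Mvd were at 3.52 and 3.31 times that median, Dhcr7 at 2.70 and Insig1 at 3.71. The exceptions were Fdft1 (0.867), for which Restricted 10 was highest, and Idi1 (2.45), for which Control 2 was highest. Restricted 10 was first or second for 12 of the 18. Among the 18 it was first only for Fdft1, and it was first for 7.58% of all tested genes. Its share of first or second places over all genes was not computed, so the 12 has no background here. These are descriptions of single libraries, with no test.

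Control 2 reached 3.74 times the median of the other control libraries for Idi1 and 5.00 times for Pdss1, a prenyltransferase for ubiquinone. It was also at 2.97 times that median for Soat1, which esterifies sterols (37.2 CPM, next 16.7), and at 1.48 for Tmem97, 1.45 for Mvd, 1.38 for Msmo1 and 1.35 for Cyp51. Of the other 7 of the 8 genes, Hmgcs1 was at 1.21 and Srebf2 at 1.10 times that median, and Insig1, Sqle, Fdft1, Sc5d and Dhcr7 at 0.814 to 1.0 times. The sebaceous markers of this library were led by Awat2 at 72.5 CPM (at most 0.771 CPM elsewhere) and Krt79 at 44.2 CPM (at most 11.3 CPM elsewhere). Mc5r was at 3.25 CPM (at most 2.40 CPM elsewhere), and Scd3, at 1.87 CPM, was below the 4.03 CPM of Restricted 1.

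The contamination label itself was tested in the same fit. It called none of the 8 genes (edgeR, 5.30% of all tested genes called), with 2 at an unadjusted p under 0.05, Sqle (0.29, adjusted p = 0.343) and Srebf2 (0.14, adjusted p = 0.340), and none at that level without Restricted 1 (5.73% of all genes called). The product of diet and label called none of the 8, nor any of the 15986 genes (0%), and none of the 8 had an unadjusted p under 0.05. Without Restricted 1, Insig1 had a product term of −1.01 (unadjusted p = 0.0116, adjusted p = 0.475). Its 7 restricted libraries marked No had 189.6 ± 62.7 CPM (SD), while the other 2 marked Yes, Restricted 2 and 3, had 108.6 and 109.6 CPM. In the same edgeR fit the term was also negative for Cyp51 (−1.12, unadjusted p = 0.00434), Nsdhl (−0.74, 0.0130), Msmo1 (−0.64, 0.0145) and Lss (−0.67, 0.0253). Of the genes of fatty acid synthesis, Elovl6 was at −2.62 (0.00314) and Acaca at −1.40 (0.00559). Mvk was at −0.08 (0.655), and Hmgcs1 and Srebf2 were positive, at 0.14 and 0.27. The term called none of 16135 genes (0%) and rests on only those 2 restricted libraries marked Yes.

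The 8 genes were then compared with each other within diet and label, as residuals of log2 CPM, in 28 pairs over 20 libraries. Pearson's r ran from −0.33 to 0.82 with a median of 0.25, and 23 pairs were positive. By r, 4 pairs had an adjusted p under 0.05 in permutation tests, and by Spearman's rho none did. Insig1 with Dhcr7 had r = 0.82 (permutation p = 5e-05, adjusted 0.0014) and rho = 0.63 (permutation p = 0.00392, adjusted 0.0710). Leaving out the 2 libraries farthest from the median, Restricted 1 and Restricted 2, gave r = 0.58.

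The other 3 pairs all held Sqle. Sqle with Dhcr7 had r = 0.76 (permutation p = 0.00019, adjusted 0.00266) and rho = 0.53 (permutation p = 0.0181, adjusted 0.101). Sqle with Insig1 had r = 0.71 (permutation p = 0.00045, adjusted 0.0042) and rho = 0.54 (permutation p = 0.0148, adjusted 0.101), and Sqle with Sc5d r = 0.64 (permutation p = 0.00258, adjusted 0.0181) and rho = 0.61 (permutation p = 0.00507, adjusted 0.0710). Without Restricted 1 and Restricted 10 these had r = 0.52, 0.43 and 0.66. Without Restricted 1 alone, no pair of the 28 passed, the median r was 0.10 and the highest 0.60. The 4 pairs named were at 0.45 to 0.60 there. Libraries share their RNA quality and cell makeup across genes, and the part of either was not tested.

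**Figure D4:**
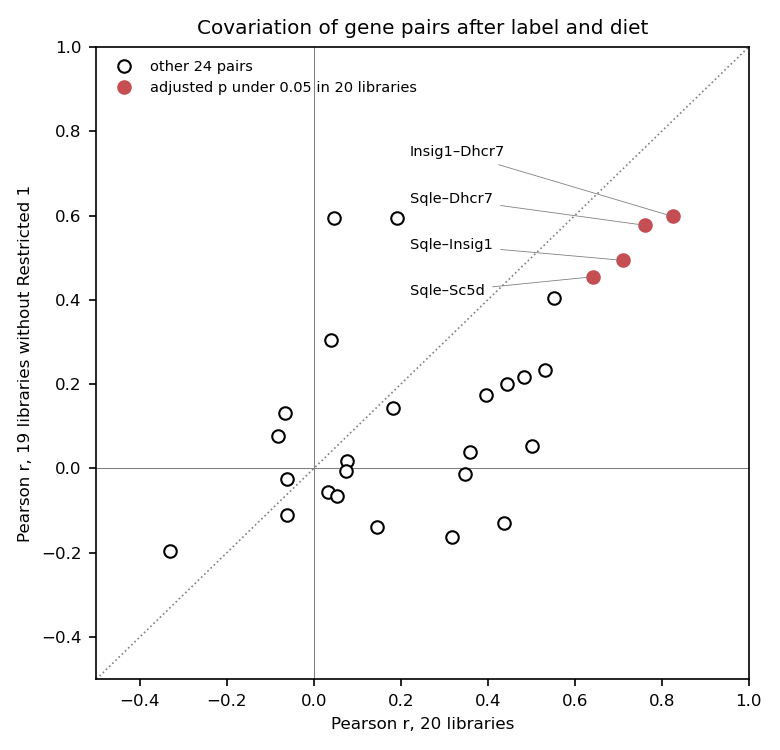
Pearson r of each of the 28 pairs within diet and label in 20 libraries (x axis) and in 19 without Restricted 1 (y axis), with the dotted line for equal values and red for an adjusted p under 0.05 in 20 libraries. The 4 red pairs, from 0.64 to 0.82 on the x axis, lie below the line, at 0.45 to 0.60 on the y axis.

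The genes most like the mean residual of the 8 were, over 20 libraries, Mvk (r = 0.89), Plin2 (0.88), Agpat2 (0.88), Tlcd1 (0.88) and Mvd (0.87) of 15978 genes ranked. Mvk and Mvd are mevalonate enzymes, Plin2 coats lipid droplets and Agpat2 takes part in triglyceride synthesis. Over 19 libraries without Restricted 1 they were Tlcd1 (0.83), Pmm1 (0.80), Gm15429 (0.79), Rilp (0.79) and Mvd (0.78), so that Tlcd1 and Mvd stood in both sets. These are descriptions of the highest of many values.

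For comparison, genes of fatty acid synthesis, mostly driven by SREBP1, were read in the same fit. Scd1, a desaturase, rose by 0.82 ± 0.147 (log2, SE, adjusted p = 0.000989) and was at 0.63 without Restricted 1 (adjusted p = 0.00511). Elovl6, an elongase, rose by 2.04 ± 0.490 (log2, SE, adjusted p = 0.00833) and was at 0.90 without Restricted 1 (adjusted p = 0.322). Fasn was at 0.64 (adjusted p = 0.215) and Acaca at 0.74 (adjusted p = 0.0933), and at −0.06 and 0.24 without Restricted 1. Acaca passed without Restricted 2 (0.90, adjusted p = 0.0375) or Restricted 3 (0.92, adjusted p = 0.0310).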

How the data were processed

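PolyA libraries (Universal Plus mRNA-seq) were read as 52-bp paired ends, per the labels' protocols. Build GRCm38 and the tools STAR, Salmon and bcl2fastq 4.0.3 appear in the submitters' processing notes without their roles. Which tool, annotation and strand option produced the counts is not given. The values are raw gene counts, used as deposited by the authors. Of 55401 identifiers 55141 got a symbol. The test was edgeR 4.0.16 (R 4.3.3) after filterByExpr at a minimum count of 10 (which kept at least 99.629% of counts) and TMM scaling, with a quasi-likelihood fit of contamination label and diet over 20 libraries, two-sided, and Benjamini-Hochberg adjustment over all tested genes at 0.05. Residual correlations used log2 CPM with a prior count of 2 and 100000 permutations, where 1e-05 is the smallest p they can give. The biological coefficient of variation was 0.179. Depth limits Idi1 most, at 1.89 to 13.0 CPM.

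Alternatives were DESeq2 1.42.0, limma-voom (limma 3.58.1), other factors, filters, models and sets of libraries; the analysis without Control 2 and Restricted 1 together was added after the data were seen. In simulated data for the diet comparison, with 15848 genes, 65.7% of 99 genes changed 1.5-fold and 81% of 100 changed 2-fold were called. The genes described and all lists were chosen with earlier results of these data known. Named were the 8 genes, every listed pathway gene called by diet, Srebf1, Scap, Insig2, Fasn, Acaca, Scd1, Elovl6 and the 5 genes most like the 8; Erlin1, Abcg1, Abca1, Nceh1, Soat1, Msmo1, Cyp51, Acat2, Lss, Mmab, Tmem97, Nsdhl, Mvd, Pdss1, Ctsb and Idi2 were named after their values were seen. A few listed pathway genes are not reported here. Figures used Python 3.11.15 with matplotlib 3.10.9.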

Additional observations from a re-analysis of the deposited data

Results flagged for a closer look

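In 16 groups (8 genes in 10 libraries of each diet), 7 values lay apart from the rest by a gap that was more than 0.466 of the range of their group, Dixon's limit for 10 values. Chance marks about 1 in 20 groups this way, and genes of 1 library are not independent. Restricted 1 held 5 of them, at 551 CPM for Insig1 (next 296), 48.3 CPM for Dhcr7 (next 25.7), 30.5 CPM for Sqle (next 21.0), 191 CPM for Hmgcs1 (next 145) and 7.11 CPM for Idi1 (next 4.05). Restricted 10 stood apart for Fdft1, at 157 CPM (next 121). Control 2 stood apart for Idi1, at 13.0 CPM (next 4.28), where the gap took up 0.827 of the range.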

How the results depend on the processing

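The 2173 genes called by diet became 927 in the 14 libraries, 400 and 239 in libraries marked No or Yes alone, 392 with the RNA integrity number as a term (1445 in the same 17 libraries without it), and 1506 to 2274 with 1 library left out. Of the 8 genes, 5 were called, against 2 to 5 with 1 library left out, 2 in the 14 libraries, 2 without Control 2 and Restricted 1, 1 in libraries marked No and 1 in those marked Yes, 3 with the integrity term (2 without it in the same 17), 3 with no filter but on genes at 0 everywhere, and 3 by limma-voom. Pathway genes called, 5 (4 to 7 with 1 library left out), became 9 without the label term, 8 by DESeq2, 3 with no filter but on genes at 0 everywhere, 1 and 0 in libraries marked No or Yes, and 2 with the integrity term. Over all 15986 tested genes, DESeq2 called 1336 higher and 1280 lower, and limma-voom 1019 higher and 1131 lower. The 4 pairs became 0 without Restricted 1. Same-numbered libraries did not deviate together (r from −0.09 to 0.13, over 0.1 in 2 of 10 pairs, own number best for 1 of 20 libraries). No pairing by number was seen this way, though a weak pairing would not be seen either. With the number as a replicate block, 1388 genes, 2 of the 8 and 3 pathway genes were called. The sign turned for Hmgcs1 in libraries marked Yes (0.20), with the integrity term (0.10) and in the same 17 (0.0236), and ran from −0.178 to 0.0536 with 1 library left out. It turned for Sqle in the 14 libraries (−0.15), by limma-voom (−0.0620) and without Control 2 and Restricted 1 (−0.0705), and ran from −0.0659 to 0.207 with 1 left out. It turned for Idi1 with the integrity term (0.0262; −0.462 to 0.0632 with 1 left out), Srebf1 in the 14 (−0.0403) and Fasn in the 14 (−0.24), by limma-voom (−0.13) and without Control 2 and Restricted 1 (−0.0740; −0.0613 to 0.823 with 1 left out). None of these genes was called in any of these settings. The cause was not tested; smaller sets also hold fewer samples.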
